A study of Mus musculus with 6 samples.

Results

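The MHC class I genes described here are 9 heavy chain genes of the mouse H2 complex, H2-K1, H2-D1, H2-Q4, H2-Q6, H2-Q7, H2-T22, H2-T23, H2-M3 and H2-M9, together with B2m, the gene of the light chain they share. They were taken by gene symbol from the authors' deposited table of all genes, where all 10 named symbols stand on 1 row each among 14472 rows. The RNA came from mLPS1, mouse cells of a dedifferentiated liposarcoma, which is a tumour related to fat tissue. The series holds 6 libraries, 3 of the line labelled wild type (p35, p37 and p40 in the titles) and 3 of the line labelled NICD Knockout (p34, p36 and p39), with no treatment named. NICD is the Notch intracellular domain, the part of a Notch receptor that is cut free on activation and switches on target genes in the nucleus. Its title names Notch over-expression, and the sources used here do not give whether an introduced Notch fragment is present in the wild type line, whether the knockout line is a single clone, or which mouse strain it came from.

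MHC class I molecules display short peptides from inside the cell on its surface, where CD8 T cells and natural killer cells inspect them. Each is a heavy chain that holds the peptide in a groove, paired with beta-2 microglobulin, without which most heavy chains do not reach the surface. The classical heavy chains H2-K1 and H2-D1 are highly polymorphic and carry most peptides shown to CD8 T cells, while the genes of the Q, T and M regions are called non-classical. Interferons and NF-kappaB raise class I transcription through a pair of promoter elements, and the transactivator Nlrc5 acts through a further set of boxes. Tumour cells often carry low class I levels, and many regain them under interferon.

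The promoters of the members are shown as a description of the sequences next to genes that mostly moved together. RefSeq sequences of GRCm38.p6 were matched by symbol for all 10 members and are shown as the 250 bases before the transcription start, 5′ to 3′ along the gene. Capitals mark matches, on either strand, to GAANNGAAA or GAAA, any 2 bases and GAAA, both forms of the interferon-stimulated response element, and to a kappaB-like motif of GGGA, any base, T, any 2 bases and CC. The 6 rising members shown are H2-K1 and H2-Q4, which had the steepest rises, H2-T23 and H2-T22 of the T region, H2-M3 and B2m. H2-M9 is shown beside H2-M1, the neighbouring class I gene that was also called lower. The H2-K1 (chr17:34000348-34000597), H2-T23 (chr17:36032702-36032951), H2-T22 (chr17:36042743-36042992), H2-M9 (chr17:36642664-36642913) and H2-M1 (chr17:36672198-36672447) windows lie on the minus strand. The H2-Q4 (chr17:35379367-35379616), H2-M3 (chr17:37269984-37270233) and B2m (chr2:122147437-122147686) windows lie on the plus strand.
H2-K1: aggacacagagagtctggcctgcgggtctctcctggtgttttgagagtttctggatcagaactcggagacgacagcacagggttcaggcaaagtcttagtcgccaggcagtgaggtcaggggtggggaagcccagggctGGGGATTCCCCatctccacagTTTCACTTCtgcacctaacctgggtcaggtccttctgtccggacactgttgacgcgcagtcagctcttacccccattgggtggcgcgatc
H2-Q4: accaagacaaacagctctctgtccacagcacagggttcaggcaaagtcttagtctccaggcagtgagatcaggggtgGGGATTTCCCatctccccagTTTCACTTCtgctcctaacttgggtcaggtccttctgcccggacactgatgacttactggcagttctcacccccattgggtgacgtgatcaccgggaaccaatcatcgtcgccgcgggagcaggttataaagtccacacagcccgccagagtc
H2-T23: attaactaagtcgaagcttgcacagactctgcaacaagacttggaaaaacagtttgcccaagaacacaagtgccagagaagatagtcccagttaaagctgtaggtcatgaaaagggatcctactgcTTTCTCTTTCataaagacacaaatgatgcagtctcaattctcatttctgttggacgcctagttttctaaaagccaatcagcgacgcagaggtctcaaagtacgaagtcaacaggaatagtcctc
H2-T22: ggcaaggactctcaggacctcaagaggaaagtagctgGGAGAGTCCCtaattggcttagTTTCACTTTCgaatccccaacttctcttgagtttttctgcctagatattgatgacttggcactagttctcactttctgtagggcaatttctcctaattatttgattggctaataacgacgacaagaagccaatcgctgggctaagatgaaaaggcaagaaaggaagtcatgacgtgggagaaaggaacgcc
H2-M3: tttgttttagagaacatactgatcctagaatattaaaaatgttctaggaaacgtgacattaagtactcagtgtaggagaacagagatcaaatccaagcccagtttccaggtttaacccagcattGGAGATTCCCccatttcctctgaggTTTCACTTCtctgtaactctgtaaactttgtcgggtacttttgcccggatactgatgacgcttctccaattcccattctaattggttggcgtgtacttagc
B2m: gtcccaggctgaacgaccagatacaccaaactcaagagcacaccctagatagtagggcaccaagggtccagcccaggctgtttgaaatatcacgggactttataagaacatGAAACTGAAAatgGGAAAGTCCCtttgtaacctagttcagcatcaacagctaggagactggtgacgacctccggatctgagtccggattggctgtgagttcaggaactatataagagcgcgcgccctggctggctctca
H2-M9: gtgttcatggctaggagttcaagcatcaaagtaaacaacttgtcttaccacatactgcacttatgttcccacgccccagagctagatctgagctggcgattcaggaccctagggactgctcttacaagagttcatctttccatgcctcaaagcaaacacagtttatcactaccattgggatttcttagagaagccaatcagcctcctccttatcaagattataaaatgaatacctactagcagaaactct
H2-M1: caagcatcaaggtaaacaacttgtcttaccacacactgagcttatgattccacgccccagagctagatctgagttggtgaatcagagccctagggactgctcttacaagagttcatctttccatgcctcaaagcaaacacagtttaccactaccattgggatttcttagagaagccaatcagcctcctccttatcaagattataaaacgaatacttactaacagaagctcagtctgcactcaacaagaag

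The shorter form GAANNGAAA stood in the windows of 6 of the 10 members, H2-K1, H2-D1, H2-Q4, H2-Q6, H2-Q7 and H2-M3, each as GAAGTGAAA on the strand opposite to the gene. Of 27025 promoters of the same length, 6.3% hold that form. The longer form, which was added after the windows had been seen, stood in H2-T22 as GAAAGTGAAA, in H2-T23 as GAAAGAGAAA and in B2m as GAAACTGAAA, against 3.0% of all promoters. Of the members, 9 thus held one or the other form, against 8.9% of all promoters, and H2-M9 held neither at either of its listed starts. The kappaB-like motif was found in 8 members, against 3.4% of all promoters, and was not found in H2-T23 and H2-M9. Both kinds of motif together stood in 8 members, against 0.36% of all promoters. Among promoters of tested genes, the shares were 7.6% for either interferon form, 4.1% for the kappaB-like motif and 0.37% for both kinds. In H2-K1, H2-D1, H2-Q4, H2-Q6 and H2-Q7 the first letters of the interferon and kappaB-like motifs lay 20 bases apart, in H2-T22 22 and in H2-M3 25, with the kappaB-like motif farther from the start. In B2m the order was reversed, at 13 bases. Presence of the motifs and the calls did not run in parallel throughout. H2-Q6 and H2-Q7 held both kinds and did not pass the authors' test. Their counts were low, and their intervals include both no change and a rise. Outside the members, the H2-T-ps window held neither kind and this gene rose 6.99-fold per the authors' deposited table. Reads may be split between H2-T-ps and H2-T23, since 35.2% of the 31-base stretches of H2-T-ps also occur in H2-T23. The H2-Q10 window held the shorter interferon form without a kappaB-like match, and H2-Q10 rose 16.3-fold per the authors' deposited table. No relation between motif and fold change was tested.

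**Figure D1:**
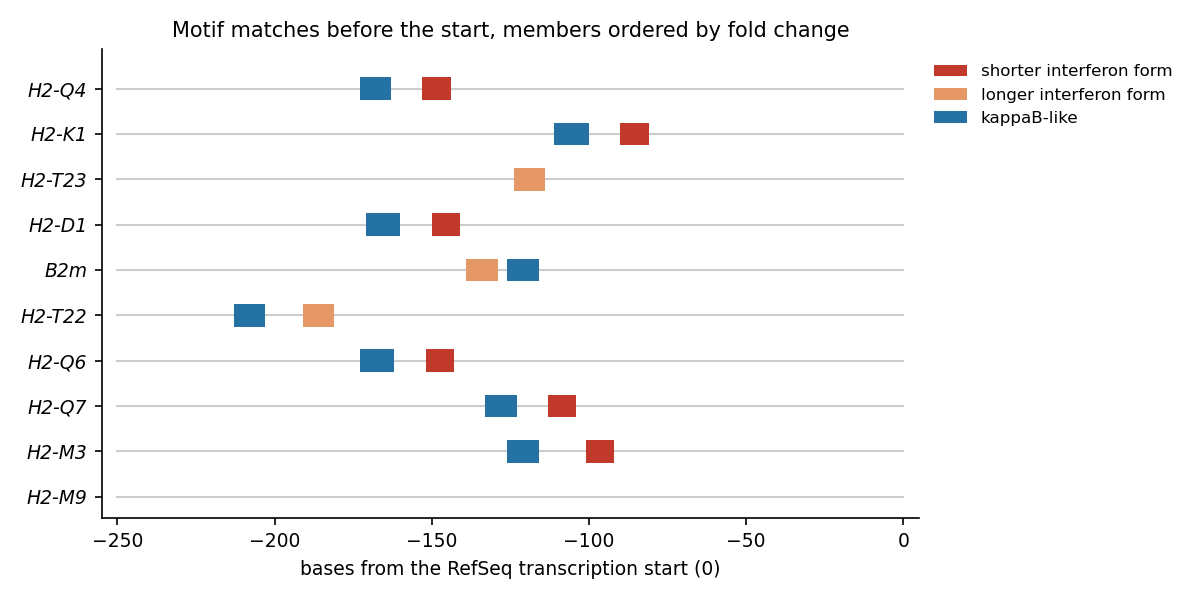
Positions of motif matches in the 250 bases before the RefSeq start of each member, with members ordered from the highest fold change at the top to the lowest at the bottom. Red and orange boxes are the shorter and longer interferon forms and blue boxes the kappaB-like motif, and the H2-M9 line at the bottom carries none.

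The windows of related genes were alike beyond these motifs, so the matches of a family are not independent. The H2-K1 and H2-D1 windows were identical at 91.0% of 177 aligned bases, and the H2-Q6 and H2-Q7 windows at 97.6% of 210. The H2-M9 and H2-M1 windows were identical at 93.0% of 230 aligned bases. TGACG, the core of the cyclic AMP response element, stood in 7 members, against 17.9% of all promoters and 26.0% of those of tested genes. ATTGG, a reversed CCAAT box, stood in all 10 members, against 34.5% and 37.1%. TGGGAA, the core of the motif bound by the Notch partner Rbpj, stood in 5 members, H2-Q4, H2-Q7, H2-M3, H2-M9 and B2m. Its shares were 21.5% of all promoters and 20.9% of those of tested genes. In H2-Q4, H2-Q7 and B2m TGGGAA overlaps the kappaB-like match. A match describes letters and does not show that a factor binds.

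The comparison asks how the line labelled NICD Knockout differs from wild type. For each gene the file holds a mean normalised count and a log2 fold change, knockout over wild type per the table's name, with its standard error (SE) and adjusted p. No value of a single library was used, so whether the groups overlap cannot be read, and a level given for a group is fitted from the mean and the fold change. The mean normalised counts sum to 21033526, and the depth of each library is unknown. The labels do not call the libraries separate cultures, and p-values then reflect only how these 6 libraries scatter, which may be technical. In the authors' deposited table, Notch1 fell 3.43-fold and the Notch target gene Heyl fell 1610-fold. Over all tested genes, 25.4% rose and 25.1% fell at an adjusted p under 0.05 per the authors' deposited table. Of 10 mesenchymal marker genes 8 were in the table, of which 3 rose and 5 fell per the authors' deposited table. Their summed fitted levels were 293356 in wild type and 129753 in the knockout, and most of each sum was Fn1 and Vim, which fell, while Dcn, Pdgfra and Col1a2 rose per the authors' deposited table.

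Among the 10 members, 7 rose and 1 fell at an adjusted p under 0.05 per the authors' deposited table, and 2 did not pass. Of all 14470 genes tested, 50.5% passed per the authors' deposited table, 25.4% higher and 25.1% lower. The median log2 fold change of the members was 1.90, against 0.02 over all tested genes. H2-Q4, H2-K1, H2-T23, H2-D1, B2m and H2-T22 also passed a test that the change exceeds 2-fold, which 6.43% of all genes passed on the higher side. H2-M9, the member that fell, passed it too, among 4.67% of all genes on the lower side. In bulk RNA, more cells carrying a transcript and more of it per cell cannot be told apart.

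**Figure D2:**
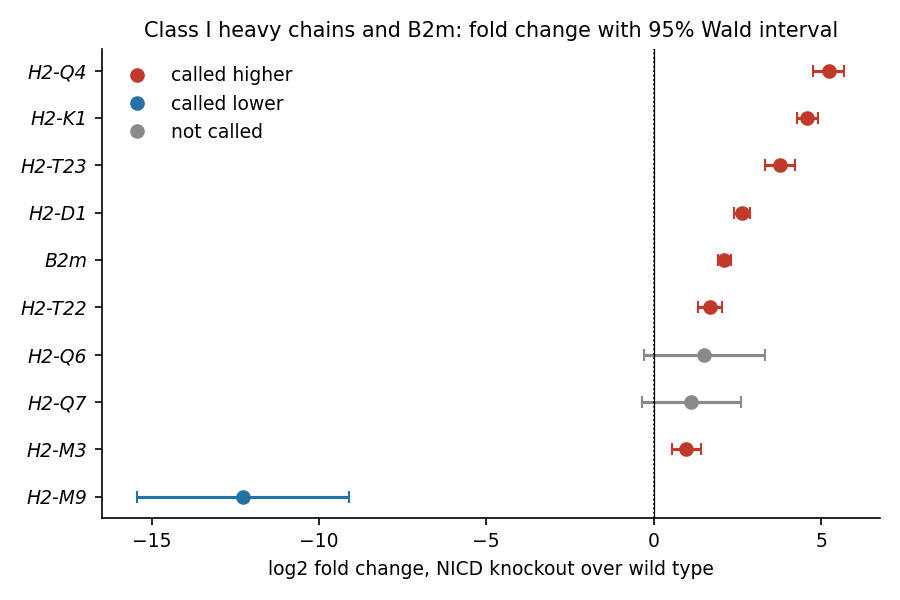
Log2 fold change of each member, knockout over wild type, with its 95% Wald interval from the deposited standard error. Points in red rose and the blue point fell at an adjusted p under 0.05, and the intervals of H2-Q6 and H2-Q7 in grey reach below 0.

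The classical heavy chains rose by different amounts. H2-K1 (ENSMUSG00000061232, chromosome 17) went from a fitted level of 431.4 normalised counts in wild type to 10377 in the knockout. This is a 24.1-fold rise (log2 fold change 4.59, SE 0.16, adjusted p = 1.50e-178, by DESeq2) per the authors' deposited table. H2-D1 (ENSMUSG00000073411) started higher, at a fitted 1944, and reached 12116 in the knockout. Its rise was 6.23-fold (log2 fold change 2.64, SE 0.13, adjusted p = 7.46e-95, by DESeq2) per the authors' deposited table. The intervals of these fold changes, 4.28 to 4.90 for H2-K1 and 2.39 to 2.89 for H2-D1, did not overlap. The deposited SEs do not carry the covariance of both genes over the same libraries, so their difference was not tested.

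B2m (ENSMUSG00000060802, chromosome 2) was the most abundant member in both groups and ranked 32 of 14472 genes by mean normalised count. It rose from a fitted 16524 to 71609, which is 4.33-fold (log2 fold change 2.12, interval 1.92 to 2.31, adjusted p = 4.89e-97, by DESeq2) per the authors' deposited table. B2m lies outside the H2 complex, and the expressed genes around it there had a median of -0.48 on the log2 scale. With that median subtracted, the log2 fold change of B2m was 2.59.

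The Q region held the steepest rise of the members and both genes that did not pass. H2-Q4 (ENSMUSG00000035929), a non-classical gene, rose from a fitted 49.0 to 1843. The rise was 37.6-fold (log2 fold change 5.23, SE 0.24, adjusted p = 7.03e-105, by DESeq2) per the authors' deposited table. H2-Q6 and H2-Q7, genes of the Qa-2 antigen, were near the lower end of detection. H2-Q7 had fitted levels of 10.8 in wild type and 23.5 in the knockout and did not pass (log2 fold change 1.12, interval -0.36 to 2.60, adjusted p = 0.212, by DESeq2) per the authors' deposited table. H2-Q6 had fitted levels of 3.59 and 10.3 and did not pass either (log2 fold change 1.52 per the authors' deposited table, interval -0.30 to 3.33, adjusted p = 0.165, by DESeq2). Both intervals include no change and also a rise of 6.07-fold for H2-Q7 and 10.1-fold for H2-Q6, so the data do not separate these cases.

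In the T region, H2-T23 encodes Qa-1, which presents leader peptides of other class I chains to the CD94/NKG2 receptors of natural killer cells. H2-T23 (ENSMUSG00000067212) rose from a fitted 61.6 to 845.2, 13.7-fold (log2 fold change 3.78, SE 0.23, adjusted p = 6.65e-59, by DESeq2) per the authors' deposited table. H2-T22, whose product is recognised by a subset of gamma-delta T cells without a bound peptide, rose less. It went from a fitted 895.5 to 2886, 3.22-fold (log2 fold change 1.69, SE 0.18, adjusted p = 2.75e-19, by DESeq2) per the authors' deposited table.

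The M region held the smallest called rise and the only fall. H2-M3, which presents N-formylated peptides of bacterial and mitochondrial origin, rose from a fitted 123.6 to 243.0. The rise was 1.97-fold (log2 fold change 0.98, interval 0.54 to 1.41, adjusted p = 4.09e-05, by DESeq2) per the authors' deposited table. It did not pass after Bonferroni adjustment over all genes (adjusted p = 0.139), nor in the test of more than 2-fold. H2-M9 (ENSMUSG00000067201), one of the M region genes known from sensory neurons of the vomeronasal organ, had a fitted level of 839.2 in wild type and, in the knockout, one below 1 normalised count per library. With the knockout set at that floor of 3 counts over the group, H2-M9 was at least 839.2-fold lower, a log2 fold change of -9.71. The deposited log2 fold change was -12.26 (SE 1.62, adjusted p = 3.96e-13, by DESeq2), the lowest of all 14470 tested genes per the authors' deposited table, and its size depends on how the knockout's near absence of counts was fitted.

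Ordered by log2 fold change per the authors' deposited table, the members ran from H2-Q4, H2-K1, H2-T23, H2-D1, B2m, H2-T22, H2-Q6, H2-Q7 and H2-M3 to H2-M9. The interval of H2-Q4 overlapped that of H2-K1, and those of B2m, H2-T22, H2-Q6, H2-Q7 and H2-M3 each overlapped the next in that order. Gaps between intervals lay between H2-K1 and H2-T23, H2-T23 and H2-D1, H2-D1 and B2m, and H2-M3 and H2-M9. H2-K1 and H2-Q4 started from lower fitted levels than H2-T22 and rose more. H2-M3, at a fitted 123.6 in wild type, also started lower than H2-T22 and rose less. H2-Q6 and H2-Q7 started lowest of the members and did not pass.

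**Figure D3:**
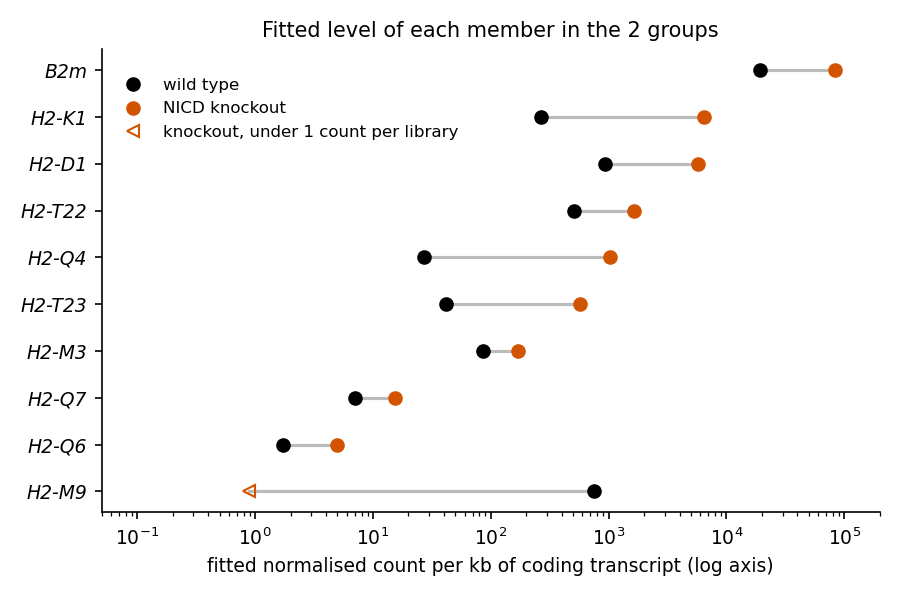
Fitted level of each member in wild type (black) and in the knockout (orange), as normalised counts per kilobase of the longest coding transcript, on a log axis. No error is drawn because the deposited standard error belongs to the ratio of the groups. The open triangle puts H2-M9 in the knockout at 1 count per library, above its fitted value, and the lines of H2-K1 and H2-Q4 are the longest of those that run to the right.

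Per kilobase of coding transcript, the fitted level of H2-K1 was 266.5 in wild type, below H2-D1 at 924.7, H2-M9 at 745.9 and H2-T22 at 508.5. In the knockout H2-K1 stood first of the heavy chains at 6410 per kilobase, followed by H2-D1 at 5764, H2-T22 at 1639, H2-Q4 at 1028 and H2-T23 at 574.2. The share of H2-K1 in the summed level of the 9 heavy chains thus went from 10.2% to 41.1%, while that of H2-D1 was 35.4% and 36.9%. H2-M9 made up 28.6% of the sum in wild type. With H2-M9 left out, the share of H2-D1 went from 49.6% to 36.9% and that of H2-K1 from 14.3% to 41.1%. The sum of all 9 was 2610 per kilobase in wild type and 15604 in the knockout, a ratio of 5.98, or 8.37 with H2-M9 left out. B2m stood at 19213 and 83266 per kilobase, so there were 7.36 units of B2m per unit of heavy chain RNA in wild type and 5.34 in the knockout. With H2-M9 left out of the heavy chains, there were 10.3 units in wild type and 5.34 in the knockout. These levels have no error of their own, and shared reads between heavy chains move them. They also depend on the transcript length used, 1619 bases for H2-K1 and 2102 for H2-D1. Before division by length, H2-D1 stood above H2-K1 in the knockout, at fitted levels of 12116 and 10377.

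The SE of a fold change also carries the spread between libraries. If 3 libraries of like depth entered per group, the called members other than H2-M9 had an implied coefficient of variation between libraries of 8.47%, in B2m, to 17.4%, in H2-Q4. Counting error made up 0.52% of the variance of the fold change in B2m, 6.56% in H2-K1 and 25.7% in H2-Q4. H2-Q6 and H2-Q7 had implied coefficients of variation of 65.6% and 58.6%, and counting error gave 30.5% and 16.4% of their variance.

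Class I genes are close copies of each other, and short reads can be split among them. In GENCODE M21 transcripts, 51.0% of the 31-base words of H2-T22 also occur in another gene, most of them in H2-T10 (44.3%). The shares were 50.3% for H2-Q6, 39.1% for H2-Q7, 38.4% for H2-Q4, 26.7% for H2-D1, 24.5% for H2-T23 and 22.8% for H2-K1. H2-M3 and H2-M9 shared 4.6% and 4.3%, the latter with H2-M1, and B2m shared 0.0%. The rise of B2m and H2-M3 and the fall of H2-M9 thus rest mostly on words of their own, while the split of the change among the Q genes and between H2-T22 and H2-T10 is uncertain. Of the other class I genes that rose, H2-Q5 shared 57.8%, H2-T10 50.7% and H2-T-ps 48.4%. H2-Q10 shared 30.3%, H2-Bl 21.3% and H2-K2 16.6%, so reads of other genes may enter these rises. The alleles of the line may also differ from the C57BL/6J reference, which was not tested.

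The other class I genes of the H2 region in the table, taken by name, mostly rose too. Of 8 genes, 6 rose and 1 fell per the authors' deposited table, and their median log2 fold change was 3.30. The shares over all tested genes were 25.4% higher and 25.1% lower. H2-T10, like H2-T22 a ligand of gamma-delta T cells, rose from a fitted 6.46 to 177.8, 27.5-fold per the authors' deposited table. H2-K2, H2-Q10, H2-Q5, H2-T-ps and H2-Bl rose with log2 fold changes of 4.32, 4.03, 3.80, 2.81 and 2.60 per the authors' deposited table, from fitted wild type levels of 1.80 to 17.9. Of these, H2-K2, H2-Q5 and H2-T-ps have no protein-coding transcript in GENCODE M21. H2-M5 did not pass (log2 fold change 1.25 per the authors' deposited table, interval -0.39 to 2.90). The gene that fell was H2-M1, which like H2-M9 is known from vomeronasal neurons. It had a fitted level of 87.4 in wild type and, in the knockout, one below 1 normalised count per library, so it was at least 87.4-fold lower (deposited log2 fold change -9.00, SE 2.09, adjusted p = 7.01e-05, by DESeq2). H2-M1 did not pass after Bonferroni adjustment.

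The members of chromosome 17 are spread over a region in which other genes moved in both directions. From H2-K1 to H2-M3 the table holds 111 genes, of which 84 carry no class I name and are not on the pathway lists. Some of these may be class I-related, since Gm11127 and Gm10499 share 31-base words with members. Of these 84, 25 rose and 14 fell per the authors' deposited table, and their median log2 fold change was 0.18. Of all tested genes, 25.4% were called higher and 25.1% lower, so nothing is read from these counts. H2-M9 and H2-M1 stand next to each other in the order of the table's genes. The flanking genes Trim39 and Trim26 had log2 fold changes of 0.40 (adjusted p = 0.0352) and 0.02 (adjusted p = 0.928) per the authors' deposited table, by DESeq2. The median of the 20 nearest expressed genes outside class I and its pathway lay between -0.08 and 0.33 for the 9 members of this chromosome, and subtracting it changed no member's call. For H2-M3 it took the log2 fold change from 0.98 to 0.65.

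**Figure D4:**
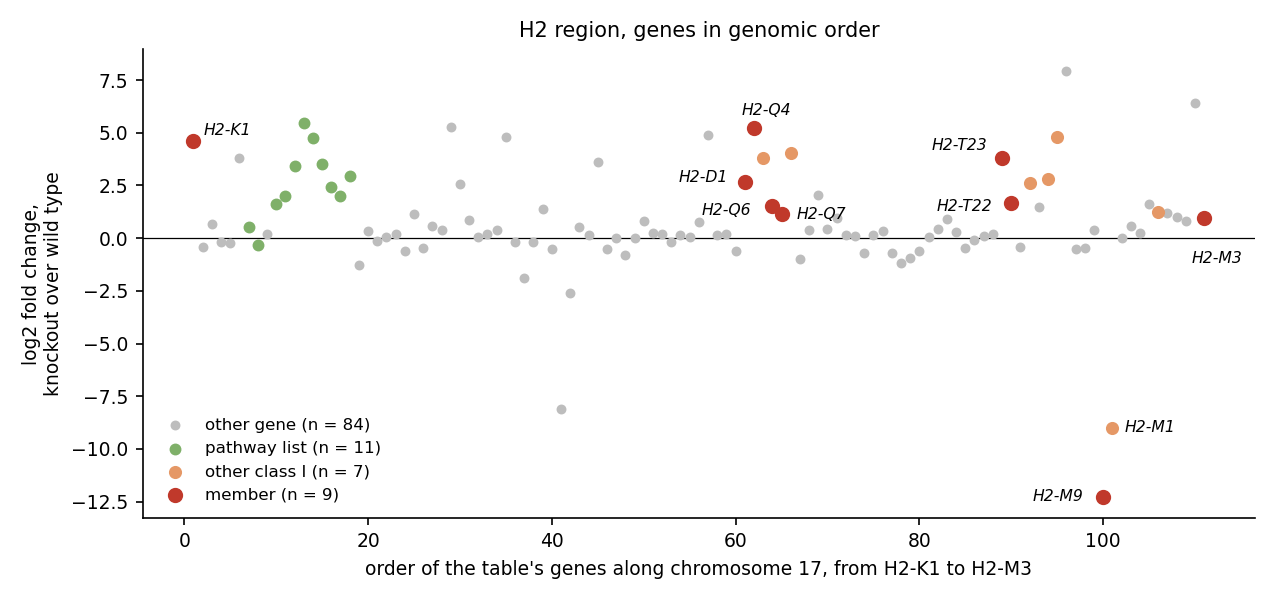
Log2 fold change of the 111 table genes from H2-K1 to H2-M3 in their order along chromosome 17, with members in red, other class I genes in orange, genes of the pathway lists in green and all others in grey. H2-M9 and H2-M1 stand side by side at -12.26 and -9.00, while the other named members lie above 0.

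Genes that supply and load class I peptides were taken from lists made by name. Beside the counts of each list stand the shares over all tested genes, 25.4% higher and 25.1% lower. Of 9 tested peptide supply genes 7 rose and 1, the aminopeptidase gene Lap3, fell per the authors' deposited table. Psmb8, a catalytic subunit of the immunoproteasome, rose 27.1-fold, Psmb10 rose 3.91-fold, and the activator subunits Psme1 and Psme2 rose 3.21-fold and 3.18-fold per the authors' deposited table. Of 8 transport and loading genes, 4 rose and 3 fell per the authors' deposited table. The peptide transporter genes Tap1 and Tap2 rose 10.8-fold and 11.4-fold and Tapbp, the tapasin that bridges the transporter and the heavy chain, rose 7.29-fold per the authors' deposited table. The general chaperones of the endoplasmic reticulum did not follow: Pdia3, Hspa5 and Calr fell with log2 fold changes of -1.23, -0.98 and -0.78 per the authors' deposited table, and Canx did not pass at 0.14. With the median of neighbouring genes subtracted, Pdia3 stood at -0.76 and Lap3 at -0.14, against -0.46 for Lap3 before.

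Among 16 transactivators and promoter-binding factors of class I, 7 rose and 3 fell per the authors' deposited table, and their median log2 fold change was 0.09. The shares over all tested genes, 25.4% higher and 25.1% lower, also stand beside the interferon counts below. Nlrc5, the class I transactivator, rose from a fitted 10.1 to 693.0, 68.5-fold (log2 fold change 6.10, SE 0.38, adjusted p = 8.16e-55, by DESeq2) per the authors' deposited table. Rfx5, a subunit of the complex on which Nlrc5 assembles, rose 4.50-fold, and its partner gene Rfxap fell 1.86-fold per the authors' deposited table. The interferon signalling factors Stat2 and Irf9 rose 11.1-fold and 5.11-fold, and Irf1, which binds the interferon element of class I promoters, rose 1.96-fold per the authors' deposited table. Of the NF-kappaB subunits, Nfkb1 rose 1.29-fold per the authors' deposited table and Rela did not pass (log2 fold change -0.02). The log2 fold change of Nfkb1 was 0.37, or 0.07 with the neighbour median subtracted. Of 9 interferon ligand and receptor genes, 5 fell and 2 rose per the authors' deposited table. The receptor genes Ifngr2, Ifnar2 and Ifnar1 and the kinase gene Jak1 fell with log2 fold changes of -1.85, -1.57, -1.48 and -0.72 per the authors' deposited table. The 3 receptor genes lie on chromosome 16 among genes that were lower too, and with the neighbour median subtracted their log2 fold changes were -0.73, -0.43 and -0.36. Ifnb1, the interferon beta gene, had a fitted level of 8.23 in the knockout and, in wild type, one below 1 normalised count per library, and was called higher (adjusted p = 0.00521 per the authors' deposited table, by DESeq2).

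Class II genes, which present peptides taken up from outside and are mostly made by professional antigen-presenting cells, formed a list of 11, of which 8 were in the table. Among these, 3 rose, none fell and 5 did not pass per the authors' deposited table. Of all tested genes, 25.4% rose and 25.1% fell. Cd74, the invariant chain, rose from a fitted 31.1 to 1297 with a wide SE (log2 fold change 5.38, SE 1.44 per the authors' deposited table), and the peptide-loading subunit H2-DMb1 rose 4.01-fold. H2-Eb1, fitted at 1.72 in wild type and 13.1 in the knockout, was called at an adjusted p = 0.0464 per the authors' deposited table, by DESeq2. H2-Aa and H2-Ab1 had log2 fold changes of 2.02 and 2.40 with SEs of 2.68 and 2.73 per the authors' deposited table and did not pass. The class II transactivator Ciita was named on this list and was not among the 8 genes tested.

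Leukocyte markers were read beside these results, since leukocytes carry high class I levels. Of 13 markers 8 were in the table, 4 higher and 1 lower per the authors' deposited table. Of all tested genes, 25.4% were higher and 25.1% lower. The summed fitted levels of the 8 markers were 410.8 in wild type and 2510 in the knockout. Most of that sum was Cd68, a lysosomal protein gene that is not restricted to leukocytes, at fitted levels of 179.0 and 2238. Coro1a, an actin regulator of leukocytes, rose from a fitted 3.55 to 25.0 (adjusted p = 0.00109, by DESeq2), 7.04-fold per the authors' deposited table. Lyz2, the lysozyme of myeloid cells, rose 1.78-fold per the authors' deposited table. Flt3, fitted under the floor in wild type and at 5.85 in the knockout, was called higher per the authors' deposited table. Ptprc, the pan-leukocyte antigen CD45, had fitted levels of 3.73 and 13.7 and did not pass (log2 fold change 1.88, adjusted p = 0.302 per the authors' deposited table, by DESeq2). The fitted level of H2-K1 in the knockout was 10377, and without levels per cell the marker levels cannot be set against it. The part of leukocyte markers in the class I rises was not tested.

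**Figure D5:**
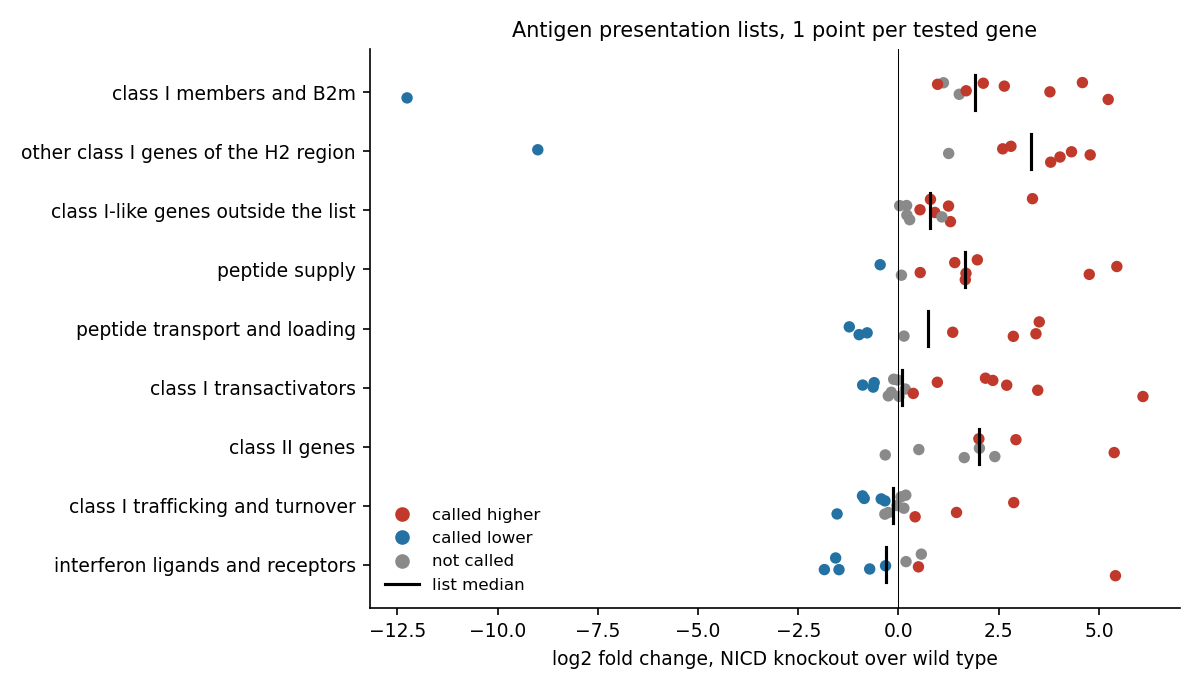
Log2 fold change of every tested gene of the members and of the 8 antigen presentation lists, with the median of each list as a black bar and the H2-M9 point of the members at the far left. Red points rose and blue points fell at an adjusted p under 0.05, and the medians of the members, of other class I genes, of peptide supply and of class II genes lie above 1.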

How the data were processed

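Salmon and DESeq2 stand in the submitters' processing notes, as does the build mm39, without version or setting. Per the file headers, the authors deposited for each gene a mean normalised count (counts over size factors, averaged across libraries), handled as a signal. They also deposited a log2 fold change with its SE on the log2 scale, a Wald statistic (a score) and a p-value with its adjusted form, per the file headers. Computing the statistic and the Benjamini-Hochberg adjustment gave the deposited values. No counts of single libraries were used, so the planned edgeR test was not run, and the calls are those of the authors' table at an adjusted p under 0.05.

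Fitted levels assume 3 libraries per group, with a floor of 1 normalised count per library. Intervals are the estimate plus or minus 1.96 SE. The test of more than 2-fold used the deposited log2 fold change and SE. Neighbour medians used 10 expressed protein-coding genes on each side, by GENCODE M21 gene order (GRCm38; 99.9% of rows matched), and no coordinates of that annotation were printed. Promoters came from RefSeq GRCm38.p6, 1 window per gene, the first listed; best local alignments gave identities. The scripts for the alternative calls were tested on simulated data. Groups followed the genotype label. The members and lists were chosen with earlier results of these data known; genes named outside the members are the 4 with the smallest p in each list, a few fixed regulators, every other class I gene, and genes of small counts chosen after their values were seen (among them Lap3, Hspa5, Calr, Canx, Rfxap, Nfkb1, Rela, Ifnb1, H2-Aa, H2-Ab1, Trim39 and Trim26). H2-Ke6, which is no class I gene, was left out of the class I list. Python 3.11.15, numpy 2.4.6, pandas 2.3.3, scipy 1.17.1 and matplotlib 3.10.9 were used.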

Additional observations from a re-analysis of the deposited data

How the results depend on the processing

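Over 8 alternatives, 77 values of single members could be computed, and 75 kept their direction and their side of the threshold. The exceptions were both H2-M3, whose log2 fold change of 0.98 had an adjusted p of 0.139 after Bonferroni adjustment and did not pass the test of more than 2-fold. Part of the count of 75 was fixed in advance. Only centring on the median of expressed genes and subtracting the neighbour median could have reversed a direction. The floor kept the deposited adjusted p, so no call could change there. Stricter thresholds could not turn H2-Q6 or H2-Q7 into calls. With the floor, H2-M9 stood at -9.71. H2-Q6 and H2-Q7 fall under the filter at a mean of 100 and H2-Q6 also under that at 10. Over all genes, 3675 were higher and 3628 lower, against 1516 and 1659 by Bonferroni and 930 and 676 in the test of more than 2-fold. By Bonferroni, lower calls went from 1 to 0 among other class I genes and peptide supply, from 3 to 0 among transactivators and from 5 to 3 in trafficking, and higher calls from 3 to 1 in class II and from 2 to 0 among interferon ligands and receptors. In the test of more than 2-fold, higher calls went from 6 to 1 among class I-like genes and from 2 to 0 among interferon ligands and receptors, and lower calls from 1 to 0 in peptide supply, from 3 to 0 in loading and in transactivators, from 5 to 1 in trafficking and from 5 to 2 among interferon ligands and receptors. At a mean of at least 100, the other class I genes had 0 calls (6 higher and 1 lower before), because none reaches that mean, and Ifnb1 dropped out at both means (2 to 1). No paired analysis was possible because the table's columns carry no replicate number. Leaving out replicates, DESeq2 on counts and edgeR were not run, since values of single libraries were not used. H2-Q6 and H2-Q7 have the lowest means of the members, 6.92 and 17.2. If the libraries were of like depth, counting error gave 30.5% and 16.4% of the variance of their fold changes. What limits these calls was not tested.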

Other observations

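Class I-like genes outside the H2 class I list were read in the same way. Of 15 named, 11 were tested, of which 6 rose and none fell per the authors' deposited table, and their median log2 fold change was 0.80. Of all tested genes, 25.4% rose and 25.1% fell. Mr1, which presents vitamin metabolites to mucosal-associated invariant T cells, rose from a fitted 35.5 to 360.1, 10.1-fold per the authors' deposited table. Hfe, a regulator of iron uptake that pairs with beta-2 microglobulin, and Procr, the endothelial protein C receptor, rose 2.46-fold and 2.38-fold per the authors' deposited table. Raet1d, Ulbp1 and Raet1e, ligands of the activating natural killer receptor NKG2D, rose 1.88-fold, 1.74-fold and 1.45-fold per the authors' deposited table. Ulbp1 and Raet1e were named after their values were seen. Fcgrt, the heavy chain of the neonatal Fc receptor, did not pass (log2 fold change 0.03, adjusted p = 0.872, by DESeq2) per the authors' deposited table.

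Genes of class I trafficking and turnover moved in both directions, with 3 of 14 higher and 5 lower per the authors' deposited table and a median log2 fold change of -0.15. The share called among all tested genes was 50.5%, so nothing is read from this count. Marchf9, a ubiquitin ligase that can remove class I from the surface, rose from a fitted 57.0 to 417.9, 7.34-fold per the authors' deposited table. Susd6 and Tmem127, which with Wwp2 lower surface class I, fell 1.86-fold and 1.81-fold per the authors' deposited table, and Wwp2 fell 1.35-fold. With the median of neighbouring genes subtracted, their log2 fold changes of -0.90, -0.85 and -0.43 became -0.23, -0.27 and -0.28. Tmem127 and Wwp2 were named after their values were seen. Tmed10, a cargo receptor of the early secretory pathway, rose 2.73-fold and Sel1l, a component of protein degradation at the endoplasmic reticulum, fell 2.89-fold per the authors' deposited table. The log2 fold change of Sel1l was -1.53, or -0.59 with its neighbour median subtracted.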
